A study of Homo sapiens with 18 samples.

Results

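Erlotinib, an inhibitor of the epidermal growth factor receptor (EGFR) kinase, was given at 1 µM for 24 hours to PC9 cells, and these erlotinib cells were set against parental PC9 cells given the vehicle DMSO. The members were chosen from the sample titles, 3 erlotinib and 3 parental libraries, which is 6 of the 18 libraries of the series. PC9 is a human lung adenocarcinoma line whose growth depends on a mutant, constantly active EGFR, and all libraries came from this 1 line, grown in RPMI-1640 with 10% fetal bovine serum. DTPs, the drug-tolerant persister cells that survived 8 days in 1 µM erlotinib, and cells given 50 µM carboplatin, a DNA-damaging platinum drug, for 72 hours are used below only for comparison (3 libraries each). The remaining 6 libraries, DTPs and parental cells given the deacetylase inhibitor TSA, enter only an alternative fit. Whether the replicates of a group are separate cultures is not given in the labels, so p-values measure the spread between these libraries, which may be technical.

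EGFR sends growth signals through the RAS-ERK cascade, which switches on early transcription factors and its own inhibitors, and through the PI3K-AKT cascade, which keeps the FOXO transcription factors out of the nucleus. In EGFR-mutant lung cancer cells a kinase inhibitor shuts both branches. ERK output is known to fall, FOXO targets and killer proteins of the BCL2 family are known to rise, and cells stop in G1 or die. The survivors of long treatment are known as persisters. The title of the series names stress-induced LINE-1 expression, so transcripts of repeats were counted beside those of genes.

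RNA was selected for poly(A) tails, and the deposited tables hold estimated read counts of genes, repeats and spike-in transcripts. Gene reads came to 84125692, 92609922 and 79986544 in erlotinib libraries, against 80933355, 83466419 and 79287734 in parental libraries. Log counts correlated at 0.99 or more within each group and at 0.954 or less between groups, across genes. Levels below are counts per 1000000 gene reads (CPM), scaled by the TMM method. They are not divided by transcript length, so levels are compared within a gene only. A log2 fold change is erlotinib over parental, with its standard error, and a call is an adjusted p under 0.05 by edgeR's quasi-likelihood test over all 17076 genes tested. ERCC spike-in RNAs, added per cell number according to the labels, took 0.699, 0.760 and 0.740 reads per 100 gene reads in erlotinib libraries, against 0.539, 0.524 and 0.538 in parental libraries (log2 difference 0.46, exact permutation test, two-sided p = 0.1, the smallest that 3 against 3 allows). Scaling to the spike-ins in place of TMM lowered the log2 fold change of a typical gene by 0.33, and members whose sign turns under it are named where they occur. In bulk RNA, fewer cells of a type and less RNA per cell cannot be told apart.

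The 24-hour response reached most of the transcriptome. Of 17076 genes, 7401 were higher in erlotinib cells (43.3%) and 6901 lower (40.4%), and 4109 were at least 2-fold higher (24.1%) and 2893 at least 2-fold lower (16.9%). With spike-in scaling the balance turned over, to 5229 higher and 8261 lower, of which 3266 were at least 2-fold higher and 4317 at least 2-fold lower. The 3 erlotinib and 3 parental libraries did not overlap for 14503 genes (84.9%). A call alone is therefore common here, and the counts for each gene group below are to be read against these shares and against the median log2 fold change over all genes, 0.06, which was -0.26 after spike-in scaling. The self-check on simulated counts recovered 65% of the 80 genes changed by 0.5 on the log2 scale. It changed far fewer genes than were called in the data, so its cutoff was stricter and this share does not carry over. A gene without a call may still have changed by that much.

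**Figure D1:**
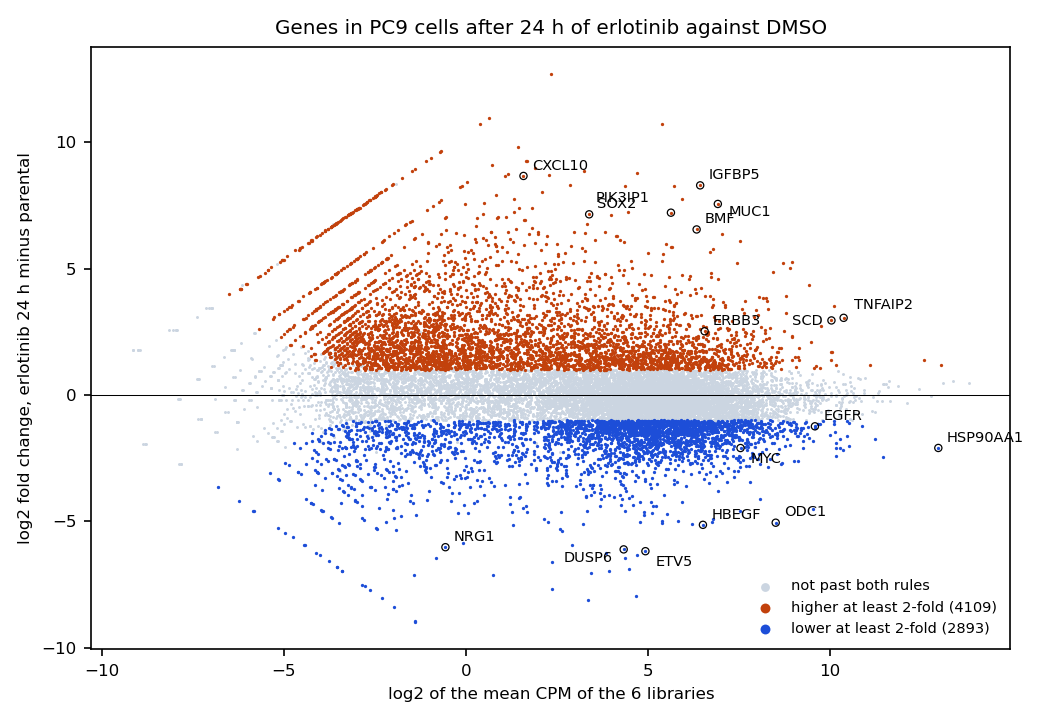
Each point is 1 of 17076 genes, with its log2 mean level over the 6 libraries (CPM) on the horizontal axis and its log2 fold change, erlotinib over parental cells, on the vertical axis. Coloured points are the 4109 genes at least 2-fold higher and the 2893 at least 2-fold lower in erlotinib cells, and named points are genes described in the text, among them BMF and PIK3IP1 at the top and DUSP6 and ETV5 at the bottom.

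EGFR itself fell in erlotinib cells while its sister receptors rose. EGFR (NCBI gene 1956, chromosome 7) had 434, 473 and 473 CPM in erlotinib cells, against 1008, 1121 and 1127 CPM in parental cells (log2 fold change -1.24 ± 0.048, adjusted p = 5.58e-13). Every erlotinib library lay below every parental library. ERBB3, the kinase-poor partner that couples EGFR to PI3K, had 161, 163 and 159 CPM in erlotinib cells, against 27.2, 29.2 and 27.7 CPM in parental cells (log2 fold change 2.52 ± 0.036, adjusted p = 3.41e-18). ERBB2, the receptor without a ligand, averaged 132 ± 0.706 CPM in erlotinib cells, against 39.4 ± 1.75 CPM in parental cells (log2 fold change 1.75 ± 0.04). Both rose with no overlap of the groups, and ERBB4 was near absent, at 0.153, 0.138 and 0.244 CPM in erlotinib cells, against 0, 0 and 0.0406 CPM in parental cells.

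The ligands of these receptors mostly fell. Of 9 ligands above the filter on low counts, 6 were lower and 2 higher, and EPGN was below the filter. HBEGF, the heparin-binding ligand of EGFR, had 4.48, 5.58 and 5.11 CPM in erlotinib cells, against 178, 179.6 and 177 CPM in parental cells (log2 fold change -5.13 ± 0.056, adjusted p = 2.02e-19), a loss of almost all its transcript. NRG1, a ligand of ERBB3 and ERBB4, averaged 0.0190 ± 0.00598 CPM in erlotinib cells, against 1.34 ± 0.0598 CPM in parental cells (log2 fold change -6.02 ± 0.38). AREG, TGFA and EREG, further EGFR ligands, changed by -2.67 ± 0.1, -1.67 ± 0.032 and -0.87 ± 0.066 on the log2 scale, and NRG2 by -1.20 ± 0.31. EGF (log2 fold change 2.19 ± 0.10) and NRG4 (log2 fold change 1.597 ± 0.16) were the ligands that rose, and BTC did not pass the test (log2 fold change -0.07 ± 0.12).

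Transcripts of the inhibitors that ERK signalling induces against itself were among the deepest losses. Of 14 tested, 11 were lower and 3 higher, 8 of them at least 2-fold lower, with a median log2 fold change of -1.78. DUSP6, the phosphatase that removes ERK's activating phosphates, had 0.682, 0.551 and 0.5002 CPM in erlotinib cells, against 40.03, 40.2 and 39.4 CPM in parental cells (log2 fold change -6.11 ± 0.075, adjusted p = 7.01e-19). The erlotinib libraries kept a trace of the parental level. SPRY4 and SPRED1, inhibitors upstream of RAF, averaged 2.60 against 81.5 CPM (log2 fold change -4.96 ± 0.052) and 5.10 against 47.7 CPM (log2 fold change -3.23 ± 0.053) in erlotinib and parental cells. The phosphatase genes DUSP2 (-4.64 ± 0.11), DUSP7 (-3.57 ± 0.055) and DUSP4 (-2.41 ± 0.03) and the inhibitor genes SPRED2 (-3.02 ± 0.045) and SPRY2 (-1.14 ± 0.054) fell as well, with log2 fold changes in brackets. ERRFI1, a direct inhibitor of EGFR, fell by less (log2 fold change -0.65 ± 0.035). DUSP10, DUSP1 and SPRED3 were the 3 members called higher (1.26 ± 0.042, 0.68 ± 0.03 and 0.54 ± 0.15), and SPRED3 lost its call with spike-in scaling (0.21); DUSP10 and DUSP1 act mainly on the stress kinases p38 and JNK.

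Among transcription factors downstream of ERK, the PEA3 genes and FOSL1 nearly vanished, EGR1, FOS and JUN moved little, and JUNB and EGR2 rose. Of 17 tested, 11 were lower and 5 higher, or 11 and 2 with spike-in scaling. ETV5, a PEA3-group ETS factor, had 0.800, 0.964 and 0.720 CPM in erlotinib cells, against 60.1, 61.1 and 59.99 CPM in parental cells (log2 fold change -6.18 ± 0.067, adjusted p = 1.89e-19). Its relatives ETV4 and ETV1 changed by -4.64 ± 0.059 and -3.89 ± 0.22, and FOSL1, an AP-1 subunit, averaged 15.1 ± 0.144 CPM in erlotinib cells, against 359 ± 18.4 CPM in parental cells (log2 fold change -4.57 ± 0.054). MYC, the growth regulator, had 70.3, 72.6 and 70.1 CPM in erlotinib cells, against 300.4, 294 and 316 CPM in parental cells (log2 fold change -2.10 ± 0.036, adjusted p = 2.79e-17). All 3 erlotinib libraries were below all parental ones for these 5 genes. EGR1, FOS and JUN changed by only -0.42 ± 0.076, -0.24 ± 0.044 and -0.18 ± 0.054. JUNB (log2 fold change 2.15 ± 0.18) and EGR2 (log2 fold change 1.35 ± 0.25) rose. FOSL2 (0.20) and IER2 (0.17) were called higher with TMM and changed sign with spike-in scaling, and IER2 had no call without parental library b (0.13).

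**Figure D2:**
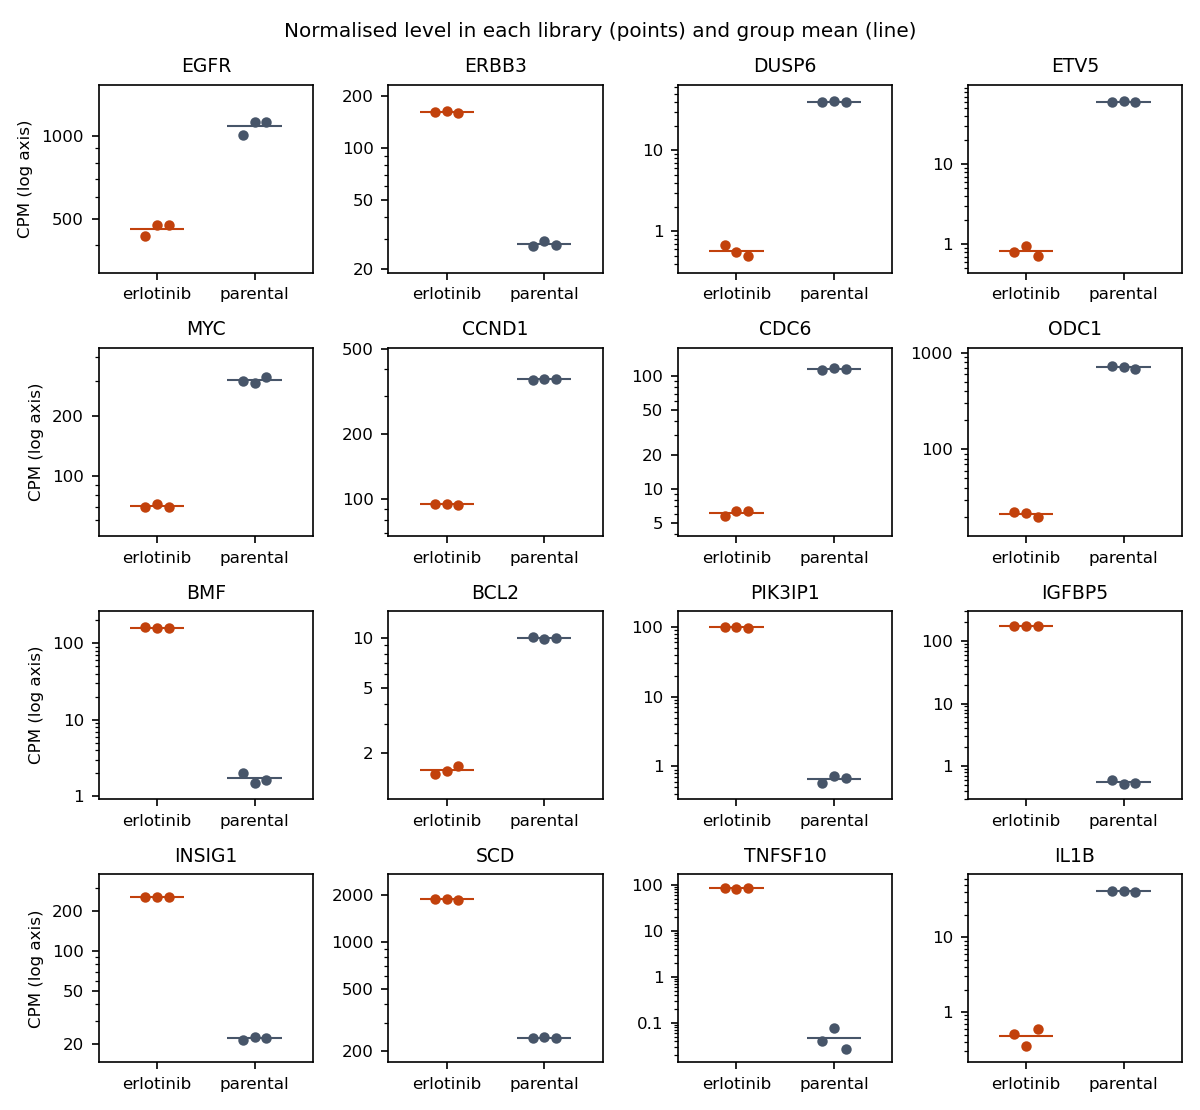
Level of 16 genes in each library (CPM, log axis), with erlotinib libraries on the left and parental libraries on the right of each pair. EGFR, DUSP6, ETV5, MYC, CCND1, CDC6, ODC1, BCL2 and IL1B lie lower in all 3 erlotinib libraries, and ERBB3, BMF, PIK3IP1, IGFBP5, INSIG1, SCD and TNFSF10 lie higher.

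Genes that PI3K-AKT signalling holds down rose together with brakes on that cascade. Of 18 tested, 13 were higher and 4 lower, 10 of them at least 2-fold higher, with a median log2 fold change of 1.31. PIK3IP1, a membrane inhibitor of PI3K, had 99.8, 99.9 and 97.0 CPM in erlotinib cells, against 0.573, 0.731 and 0.689 CPM in parental cells (log2 fold change 7.21 ± 0.065, adjusted p = 3.41e-20). DEPP1, a small FOXO-induced protein, had 124, 124 and 121 CPM in erlotinib cells, against 0.573, 0.551 and 0.608 CPM in parental cells (log2 fold change 7.73 ± 0.063). The groups of both genes lay far apart, with every parental library under 1 CPM. BCL6, a transcriptional repressor, averaged 248 ± 3.49 CPM in erlotinib cells, against 19.4 ± 0.881 CPM in parental cells (log2 fold change 3.68 ± 0.036). The cyclin CCNG2, the co-regulator CITED2 and PDK4, which brakes glucose oxidation, changed by 3.77 ± 0.052, 3.42 ± 0.041 and 3.09 ± 0.15, and FOXO4 itself by 3.6004 ± 0.069. INSR, the insulin receptor, rose (log2 fold change 2.44 ± 0.063), while its adaptors IRS1 (-1.86 ± 0.046) and IRS2 (-0.47 ± 0.03) fell, as did KLF2 (-1.74 ± 0.16) and TRIB2 (-0.83 ± 0.041).

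The FOXO motif GTAAACA, searched on both strands in 250 bases before and 50 after the RefSeq start, was present in 4 of 18 promoters of this group (22.2%) and in 2.4996% of the 12802 tested genes that have a promoter in the RefSeq table (GRCh38.p14). A match describes letters and is not a shown binding site.

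Other receptor tyrosine kinases fell more often than they rose, at 7 lower and 3 higher of 12 above the filter, while 6 more, among them PDGFRA and KIT, were below it. MET, the receptor for hepatocyte growth factor, had 57.2, 54.9 and 58.7 CPM in erlotinib cells, against 305, 318 and 309 CPM in parental cells (log2 fold change -2.45 ± 0.034). AXL, a receptor often followed in EGFR-inhibitor tolerance, averaged 114 ± 1.36 CPM in erlotinib cells, against 330.1 ± 14.95 CPM in parental cells (log2 fold change -1.54 ± 0.033). ROR1, EPHA2 and FGFR1 fell as well (-2.36 ± 0.043, -1.32 ± 0.062 and -1.01 ± 0.038). FGFR3, 7.399 against 0.386 CPM in erlotinib and parental cells, rose (log2 fold change 4.25 ± 0.13), as did the collagen receptor DDR1 (1.09 ± 0.049) and IGF1R (0.84 ± 0.034). Among the binding proteins that trap insulin-like growth factors, 5 of 6 tested were higher, or 3 with spike-in scaling. IGFBP5 had 174, 173 and 172 CPM in erlotinib cells, against 0.599, 0.513 and 0.541 CPM in parental cells (log2 fold change 8.29 ± 0.066), IGFBP3 averaged 1315 ± 28.2 CPM in erlotinib cells, against 64.6 ± 1.61 CPM in parental cells (log2 fold change 4.35 ± 0.032), and IGFBP4 fell (log2 fold change -2.56 ± 0.039). IGFBP6 rose too (1.70 ± 0.064).

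In the BCL2 family, genes of cell killing were more often higher and genes of survival more often lower. Of 11 killer genes, 7 were higher and 3 lower, and of 5 survival genes 4 were lower and 1 higher. BMF, a BH3-only protein that binds survival proteins, had 161, 160.0 and 161 CPM in erlotinib cells, against 2.01, 1.5005 and 1.64 CPM in parental cells (log2 fold change 6.55 ± 0.06, adjusted p = 4.07e-20). BCL2L11, which encodes BIM, had 86.9, 84.5 and 87.9 CPM in erlotinib cells, against 33.7, 34.0 and 33.8 CPM in parental cells (log2 fold change 1.35 ± 0.034, adjusted p = 2.65e-15). BMF is the larger of these changes in RNA, and in both genes every erlotinib library was above every parental one. The BH3-only genes BBC3 (PUMA), HRK and PMAIP1 (NOXA) rose by 3.96 ± 0.16, 3.77 ± 0.27 and 1.27 ± 0.04, and the pore formers BAX (-0.67 ± 0.038), BAK1 (-0.87 ± 0.039) and BOK (-0.77 ± 0.085) fell. BID did not pass the test (log2 fold change 0.02 ± 0.048). On the survival side, BCL2 averaged 1.58 ± 0.0915 CPM in erlotinib cells, against 10.00 ± 0.196 CPM in parental cells (log2 fold change -2.66 ± 0.083) and BCL2L1 (BCL-XL) 77.5 ± 0.593 CPM in erlotinib cells, against 232 ± 5.79 CPM in parental cells (log2 fold change -1.58 ± 0.029). MCL1 fell by less (log2 fold change -0.36 ± 0.03), and BCL2A1 was called higher (log2 fold change 0.92 ± 0.37), a call lost when parental library a, b or c or erlotinib library b or c was left out (0.84 to 0.93).

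In the death receptor pathway the ligand and the receptors moved apart, with 5 genes higher and 6 lower of 11. TNFSF10, the ligand TRAIL, had 86.4, 81.1 and 83.5 CPM in erlotinib cells, against 0.0399, 0.0769 and 0.0270 CPM in parental cells (log2 fold change 10.71 ± 0.17, adjusted p = 1.26e-17), with the 3 parental libraries holding 11.2 estimated reads in all. Its death receptors TNFRSF10A and TNFRSF10B fell (-3.27 ± 0.063 and -1.30 ± 0.031), as did the decoy TNFRSF10D (-2.03 ± 0.039) and the adaptor FADD (-0.80 ± 0.031), while the decoy TNFRSF10C rose (2.45 ± 0.55). CASP8, the initiator caspase, fell (-0.59 ± 0.039), and CASP10 (4.18 ± 0.067) and the caspase inhibitor CFLAR (1.29 ± 0.032) rose.

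Genes of the G1 group, among them cyclins, kinases and E2F factors, were lower without exception among those tested, 14 of 14, and 12 of them at least 2-fold. CCND1 (cyclin D1) had 95.4, 95.6 and 94.1 CPM in erlotinib cells, against 357, 360.5 and 363 CPM in parental cells (log2 fold change -1.92 ± 0.027, adjusted p = 2.96e-18). CDC25A, the phosphatase that activates CDK2, fell by more (log2 fold change -4.23 ± 0.055), as did the cyclin E genes CCNE1 (-3.15 ± 0.037) and CCNE2 (-3.21 ± 0.059) and the E2F genes E2F1 (-2.39 ± 0.048) and E2F7 (-3.93 ± 0.058). CDK4 changed by -1.63 ± 0.034 and CCND3 by -0.33 ± 0.039.

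CDK inhibitors did not move as 1 group: 6 of 10 inhibitor and pocket-protein genes were higher and 4 lower. CDKN1C (p57), CDKN2B (p15), CDKN2C (p18) and CDKN1B (p27) rose by 5.87 ± 0.37, 3.37 ± 0.04, 1.97 ± 0.13 and 1.25 ± 0.034. CDKN1A (p21) fell and had 6.05, 6.11 and 6.49 CPM in erlotinib cells, against 72.2, 67.0 and 72.9 CPM in parental cells (log2 fold change -3.51 ± 0.047). The pocket protein RBL2 (p130), which marks resting cells, rose (log2 fold change 1.42 ± 0.037), while RBL1 (-2.48 ± 0.11) and RB1 (-0.85 ± 0.041) fell. CDKN2A was called higher (0.18), changed sign with spike-in scaling, and had no call without parental library b (0.11) or erlotinib library b (0.17).

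DNA replication genes fell as a block: 32 of 32 were lower and 28 at least 2-fold, with a median log2 fold change of -2.44. CDC6, which loads the replicative helicase, had 5.78, 6.37 and 6.30 CPM in erlotinib cells, against 114, 118 and 115 CPM in parental cells (log2 fold change -4.23 ± 0.043). The helicase genes MCM10 (-4.75 ± 0.069), GINS2 (-4.24 ± 0.051), CDC45 (-3.67 ± 0.052) and MCM6 (-3.34 ± 0.043), the polymerase subunit POLE2 (-3.88 ± 0.073) and RRM2, which makes deoxynucleotides (-4.11 ± 0.037), fell most. TK1 (-0.56 ± 0.058), which salvages thymidine, was among the smallest losses. The mitosis group fell by less, with 24 of 27 lower, 12 of them at least 2-fold (22 with spike-in scaling), and a median of -0.92. MYBL2 (-2.49 ± 0.045), CDK1 (-1.999 ± 0.046) and CCNA2 (-1.58 ± 0.034) led it, and TOP2A, the mitotic topoisomerase, had 177, 173 and 183 CPM in erlotinib cells, against 373, 389 and 374 CPM in parental cells (log2 fold change -1.09 ± 0.041). The 3 members called higher were CDC25C (0.57 ± 0.06), CCNB2 (0.22 ± 0.044) and KIF20A (0.15 ± 0.033), and CCNB2 and KIF20A changed sign with spike-in scaling.

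Promoters of 3 members are shown because each holds a motif known from promoters of cell cycle genes. The E2F motif (TTTGGCGC or TTTCCCGC, both strands) was in 15 of 28 replication promoters (53.6%) and in 3.46% of all 12802 promoters of tested genes. The cell cycle homology region (TTTGAA, both strands) was in 12 of 21 mitosis promoters (57.1%), that of CCNB2 among them, and in 10.3% of all. Each line gives 100 bases from the part before the start of the gene, on the gene's own strand from RefSeq GRCh38.p14, with the motif in capitals: GINS2 at chr16:85688955-85689054, minus strand, CDK1 at chr10:60778123-60778222, plus strand, and KIF11, a spindle motor, at chr10:92593030-92593129, plus strand.
GINS2: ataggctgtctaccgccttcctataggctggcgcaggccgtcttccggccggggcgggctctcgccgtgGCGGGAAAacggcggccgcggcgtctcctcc
CDK1: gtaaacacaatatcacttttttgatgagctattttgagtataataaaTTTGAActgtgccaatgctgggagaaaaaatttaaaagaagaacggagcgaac
KIF11: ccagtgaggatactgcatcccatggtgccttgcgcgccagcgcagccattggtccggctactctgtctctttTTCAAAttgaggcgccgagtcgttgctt
GINS2 changed by -4.24 ± 0.051, CDK1 by -1.999 ± 0.046 and KIF11 by -1.19 ± 0.047 on the log2 scale. Where a gene has several starts in the table, the first listed was used.

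Ribosome production, a textbook target of MYC, was lower in all 22 of its tested genes, each at least 2-fold, with a median log2 fold change of -2.17. NOP56, a box C/D ribonucleoprotein, averaged 39.3 ± 0.226 CPM in erlotinib cells, against 319 ± 7.27 CPM in parental cells (log2 fold change -3.02 ± 0.032), and POLR1B, a subunit of RNA polymerase I, 21.3 ± 0.854 CPM in erlotinib cells, against 158 ± 3.55 CPM in parental cells (log2 fold change -2.89 ± 0.035). NCL (nucleolin) and NPM1 (nucleophosmin) fell by 2.16 and 1.21 on the log2 scale. Structural ribosomal proteins did not follow. Of 20, 4 were higher and 10 lower, none by 2-fold, and the 4 higher became 0 with spike-in scaling, under which 17 were lower.

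Nucleotide synthesis fell in 15 of 15 genes, 12 at least 2-fold, led by CTPS1 (-3.10 ± 0.034), which makes CTP, and the purine enzymes PPAT (-2.59 ± 0.045) and PAICS (-2.52 ± 0.038). In polyamine metabolism ODC1, the rate-limiting enzyme of synthesis, had 22.6, 21.96 and 19.8 CPM in erlotinib cells, against 726, 718 and 689 CPM in parental cells (log2 fold change -5.05 ± 0.05, adjusted p = 8.16e-20). SAT1, which acetylates polyamines for export, went the other way, with 221, 219 and 220.2 CPM in erlotinib cells, against 28.9, 29.5 and 27.2 CPM in parental cells (log2 fold change 2.95 ± 0.04). In both genes the groups lay far apart, and the synthases SRM (-2.92 ± 0.074), AMD1 (-1.85 ± 0.041) and SMS (-1.33 ± 0.035) followed ODC1. In all, 5 of the 8 polyamine genes tested were lower and 2 higher. Serine and one-carbon enzymes were lower in 7 of 9, with MTHFD1 at -2.04 ± 0.032 and MTHFD2 at -2.03 ± 0.037, while PHGDH (0.60 ± 0.03) and ALDH1L2 (1.69 ± 0.43) rose. Amino acid transporters were divided, 5 lower and 3 higher of 9, with SLC1A5 at -1.09 ± 0.032 and SLC7A5 at -0.90 ± 0.07 against SLC43A1 at 1.34 ± 0.20 and SLC38A2 at 1.01 ± 0.034.

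Glycolysis was lower in 16 of 22 genes and higher in 3, with a median of -0.61. PFKM (-1.58 ± 0.04), a phosphofructokinase, and the lactate transporter SLC16A1 (-1.498 ± 0.032) fell most, and the glucose transporter SLC2A3 rose (log2 fold change 2.44 ± 0.036), while SLC2A1 did not pass the test (log2 fold change 0.03 ± 0.037). Nuclear genes of the respiratory chain were lower in 15 of 25 and higher in 4, and the 4 higher became 0 with spike-in scaling. Transcripts of the mitochondrial genome took 6.77%, 6.45% and 6.28% of gene reads in erlotinib libraries, against 4.35%, 4.08% and 4.34% in parental libraries. Chaperones accounted for the largest losses of reads. HSP90AA1, which folds kinases, had 3081, 3034 and 3115 CPM in erlotinib cells, against 13118, 13538 and 12747 CPM in parental cells (log2 fold change -2.09 ± 0.035), and HSPA8 (-2.47 ± 0.031), HSP90AB1 (-1.75 ± 0.029), HSPD1 (-2.40 ± 0.038) and the chaperonin subunit CCT6A (-2.02 ± 0.033) fell as well. Each of these has near-identical pseudogenes or sister genes, so the split of reads among copies is uncertain.

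Sterol synthesis rose while growth genes fell. Among the 25 genes above the filter, 24 rose and 0 fell, 16 of them by 2-fold or more, with a median log2 fold change of 1.52. SCAP did not pass the test (log2 fold change 0.06 ± 0.059), and STARD4 was below the filter. INSIG1, which retains the sterol sensor in the endoplasmic reticulum, had 259, 257 and 255 CPM in erlotinib cells, against 21.4, 22.5 and 22.2 CPM in parental cells (log2 fold change 3.54 ± 0.035). HMGCS1, the synthase that feeds the mevalonate route, had 844, 822 and 845 CPM in erlotinib cells, against 173, 176 and 162 CPM in parental cells (log2 fold change 2.30 ± 0.041). All 3 erlotinib libraries exceeded all parental libraries for both. TM7SF2 (4.15 ± 0.069), a sterol reductase, and the enzymes MVD (2.81 ± 0.11), LSS (2.36 ± 0.042) and MSMO1 (2.25 ± 0.042) rose. The regulators SREBF1 and SREBF2 rose by 1.94 ± 0.087 and 1.89 ± 0.04. PMVK (0.15 ± 0.051), a kinase of the mevalonate route, was called higher and changed sign with spike-in scaling, under which 21 of the 25 were higher and 1 lower. PMVK had no call without parental library b (0.11) or erlotinib library b (0.12).

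The sterol regulatory element (TCACNCCAC, both strands) was in 1 of 19 sterol promoters (5.26%) and in 1.13% of all 12802 promoters. That promoter is shown because it belongs to the regulator SREBF2 itself (chr22:41832926-41833025, plus strand, with the motif in capitals).
SREBF2: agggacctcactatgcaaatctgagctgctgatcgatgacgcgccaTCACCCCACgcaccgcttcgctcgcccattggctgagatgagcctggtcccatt
Absence of these letters from the other windows says nothing of SREBP binding there.

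Fatty acid genes moved less uniformly, with 6 of 10 synthesis genes higher and 4 lower and 8 of 11 oxidation genes higher and 2 lower. SCD, the desaturase that makes oleate, had 1890.1, 1877 and 1857 CPM in erlotinib cells, against 242, 244 and 242 CPM in parental cells (log2 fold change 2.95 ± 0.032). ACSS2, which makes acetyl-CoA from acetate, rose by 2.70 ± 0.04 and FASN by 0.92 ± 0.13, while the elongase ELOVL6 fell (log2 fold change -1.42 ± 0.041). ACADS led the oxidation genes (1.91 ± 0.11), and ACADVL (0.30 ± 0.028) changed sign with spike-in scaling. Lysosome and autophagy genes were higher in 19 of 24 and lower in 5, 10 at least 2-fold higher, but 12 higher and 5 lower with spike-in scaling. CTSH (3.80 ± 0.038) and CTSD (1.86 ± 0.089), lysosomal proteases, and the autophagy genes GABARAPL1 (3.09 ± 0.045), WIPI1 (2.67 ± 0.05) and ULK1 (2.02 ± 0.11) rose, and the galactosidase GLA fell (-1.56 ± 0.038). The lysosomal CLEAR motif (CACGTGAC, both strands) was in 6 of 18 of their promoters (33.3%) and in 4.06% of all.

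Stress programmes showed no common direction. Of 17 p53 targets, 9 were higher and 8 lower, or 7 and 8 with spike-in scaling. TP53INP1, an autophagy and death factor that p53 can induce, averaged 44.0 ± 0.619 CPM in erlotinib cells, against 0.292 ± 0.0550 CPM in parental cells (log2 fold change 7.23 ± 0.11), whereas PLK3 (-2.17 ± 0.056) and MDM2 (-0.88 ± 0.045) fell beside CDKN1A. Among ATF4 and endoplasmic reticulum stress genes 13 of 16 were higher and 3 lower, though 7 higher and 4 lower with spike-in scaling. DDIT4, an inhibitor of mTORC1, led them (log2 fold change 2.46 ± 0.04), followed by HERPUD1 (2.03 ± 0.034), with ATF4 at 0.42 ± 0.025 and, without a call, at 0.09 with spike-in scaling.

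Interferon-stimulated genes were mostly higher in erlotinib cells, many of them at low levels. Of 28 tested, 25 were higher and 2 lower, 21 at least 2-fold higher, with a median log2 fold change of 2.47 (2.34 with the 2 genes at 0 parental reads set to their bound of 3 reads). IFIT2, an RNA-binding antiviral protein, had 27.2, 26.5 and 26.3 CPM in erlotinib cells, against 1.82, 1.96 and 1.85 CPM in parental cells (log2 fold change 3.82 ± 0.065). IFITM1, a membrane protein that blocks viral entry, had 5.33, 5.30 and 4.43 CPM in erlotinib cells, against 0.0133, 0.0256 and 0.0270 CPM in parental cells (log2 fold change 7.74 ± 0.20). The parental libraries held almost no read of IFITM1, and the groups were apart for both genes. IFI6, BST2 and IFIT1 rose likewise but stayed low, at 2.02 against 0.0618 CPM, 1.48 against 0.0526 CPM and 3.49 against 0.248 CPM in erlotinib and parental cells (log2 fold changes 5.00 ± 0.17, 4.77 ± 0.17 and 3.81 ± 0.19). XAF1 had 0.0823, 0.0847 and 0.134 CPM in erlotinib cells, against 0, 0 and 0 CPM in parental cells, and RSAD2 had 0.0353, 0.0424 and 0.0366 CPM in erlotinib cells, against 0, 0 and 0 CPM in parental cells. The transcription factors IRF9 (2.58 ± 0.076), IRF1 (2.35 ± 0.045) and STAT2 (2.32 ± 0.035) rose, USP18, which removes ISG15 from proteins, fell (log2 fold change -0.50 ± 0.075), and IFI27 did not pass the test (log2 fold change 1.19 ± 0.71).

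Letters of the interferon-stimulated response element, GAAA, any 2 bases, GAAA on either strand, were in 13 of 21 promoters of this group (61.9%) and in 2.82% of all 12802. IFITM1 (chr11:313940-314039, plus strand) and IFI6 (chr1:27672294-27672393, minus strand) are shown as the members with the largest fold changes that hold it, with the motif in capitals.
IFITM1: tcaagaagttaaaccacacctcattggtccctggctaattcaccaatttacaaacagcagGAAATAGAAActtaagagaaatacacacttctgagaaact
IFI6: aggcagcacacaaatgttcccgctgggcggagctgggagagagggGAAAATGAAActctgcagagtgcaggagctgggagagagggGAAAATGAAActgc
In erlotinib cells IFITM1 changed by 7.74 ± 0.20 and IFI6 by 5.00 ± 0.17 on the log2 scale.

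Of the 5 interferon genes listed, IFNB1, IFNL1, IFNL2 and IFNL3 were below the filter, with at most 4.35 estimated reads in either group, and IFNE, an epithelial interferon, fell (log2 fold change -0.88 ± 0.26) at 56.5 estimated reads in erlotinib cells, against 90.4 in parental cells. Of the 12 tested genes of interferon ligands, receptors, kinases and their inhibitors, 7 were higher and 4, IFNE among them, lower, with IL10RB (1.91 ± 0.04), IFNAR2 (1.29 ± 0.053) and IFNGR1 (1.19 ± 0.04) highest. Antigen presentation genes rose in 14 of 15, 13 at least 2-fold (8 with spike-in scaling): the immunoproteasome subunit PSMB9 by 3.44 ± 0.062, the peptide-loading protein TAPBP by 2.07 ± 0.056, and B2M, the light chain of class I molecules, had 761, 725 and 735 CPM in erlotinib cells, against 355, 349 and 336 CPM in parental cells (log2 fold change 1.09 ± 0.04). TAP2, a peptide transporter subunit, fell (log2 fold change -1.21 ± 0.029). HLA-F (3.41 ± 0.11) can share reads with other HLA genes, so its value is uncertain.

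Cytokine genes divided by kind, with 13 of 23 higher and 9 lower. The interleukin-1 genes nearly disappeared: IL1B had 0.506, 0.350 and 0.586 CPM in erlotinib cells, against 42.3, 41.3 and 40.1 CPM in parental cells (log2 fold change -6.44 ± 0.095), and IL1A fell by 6.87 on the log2 scale. The colony-stimulating factor CSF2 (log2 fold change -7.66 ± 0.22), IL11 (-4.59 ± 0.10), LIF (-2.18 ± 0.036) and the interleukin-33 receptor IL1RL1 (-5.01 ± 0.057) fell with them. Of the chemokine genes listed CCL2 had 3.26 estimated reads in erlotinib cells, against 2.15 in parental cells, and no call, and the others rose: CXCL1 averaged 11.3 ± 0.109 CPM in erlotinib cells, against 1.21 ± 0.179 CPM in parental cells (log2 fold change 3.22 ± 0.1), CXCL3 and CCL5 changed by 2.94 ± 0.12 and 5.08 ± 0.25, and CXCL10 had 6.08, 5.91 and 5.98 CPM in erlotinib cells, against 0, 0.0385 and 0 CPM in parental cells. TNF (4.44 ± 0.14) and the adhesion molecule ICAM1 (3.18 ± 0.035) rose, as did the feedback inhibitor NFKBIA (1.93 ± 0.035), whereas TNFAIP3, another feedback inhibitor, fell (-0.42 ± 0.025).

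**Figure D3:**
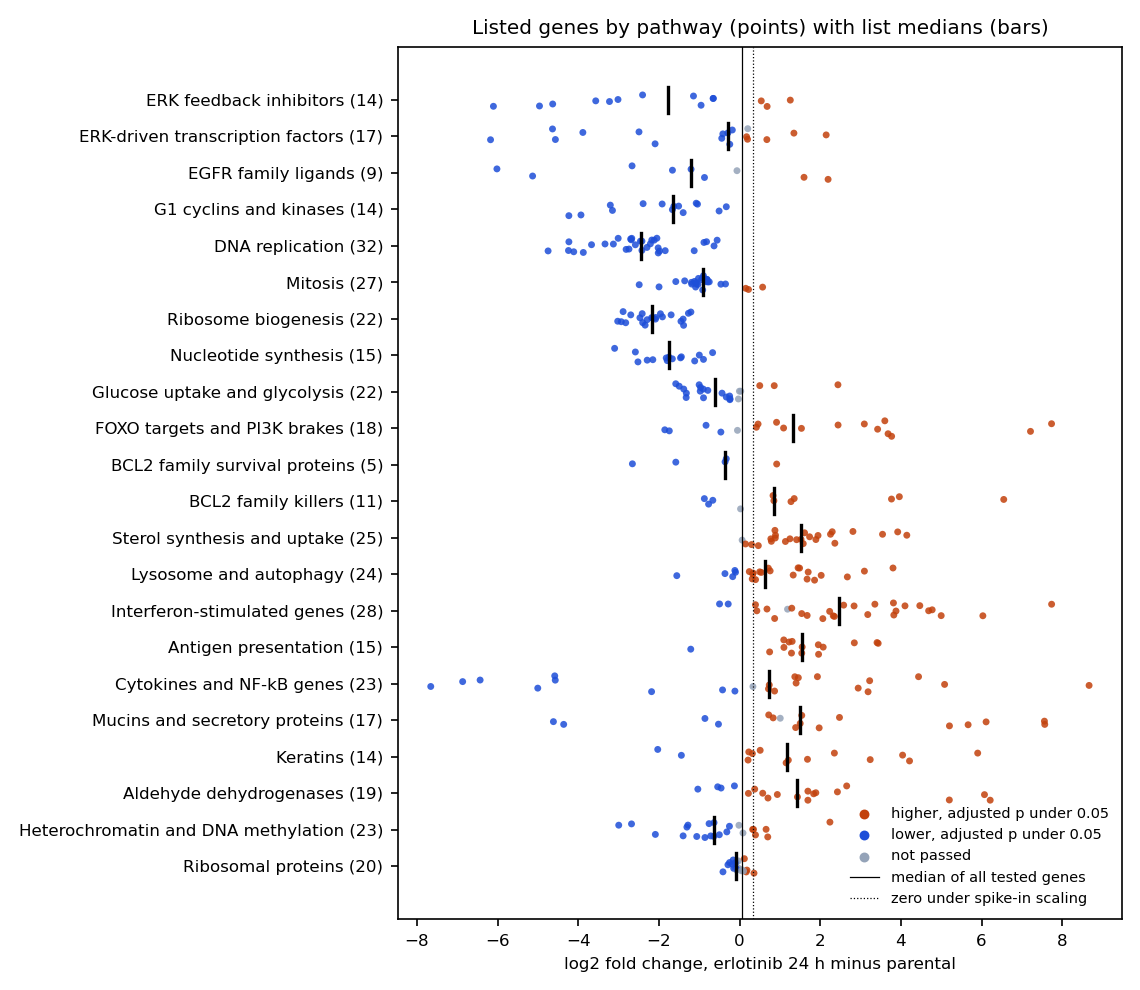
Log2 fold change, erlotinib over parental cells, of the tested members of 22 gene groups (points) with the group medians (bars). The solid line marks the median of all genes, 0.06, and the dotted line marks where 0 lies after spike-in scaling. DNA replication, ribosome biogenesis and nucleotide synthesis lie below both lines, and sterol synthesis and antigen presentation lie above them except for a few members.

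Genes of epithelial junctions, mucins and keratins were mostly higher in erlotinib cells. Epithelial junction genes were higher in 17 of 21 and lower in 2, though 13 and 4 with spike-in scaling, where 3 called members, CLDN7 among them, changed sign. CLDN4, a tight junction claudin, had 482, 515 and 504 CPM in erlotinib cells, against 109, 101 and 112 CPM in parental cells (log2 fold change 2.22 ± 0.071). CLDN3 (5.72 ± 0.29), TJP3 (5.96 ± 0.11) and OCLN (1.42 ± 0.038) rose too, CDH1 (E-cadherin) rose by 0.69 ± 0.03, and CLDN2 (-2.96 ± 0.39) and EPCAM (-1.19 ± 0.036) fell. Of 17 mucin and secretory genes above the filter, 12 were higher and 4 lower. MUC1, a transmembrane mucin, had 246, 247 and 233 CPM in erlotinib cells, against 1.26, 1.03 and 1.57 CPM in parental cells (log2 fold change 7.56 ± 0.076, adjusted p = 8.30e-20), which left the groups wide apart. MUC20 (6.11 ± 0.046), MUC16 (5.20 ± 0.061), MUC4 (2.48 ± 0.065) and AGR2 (5.67 ± 0.043), a chaperone of mucin folding, rose, PIGR had 0.282, 0.275 and 0.317 CPM in erlotinib cells, against 0, 0 and 0 CPM in parental cells, and the trefoil peptides TFF1 (-4.62 ± 0.22) and TFF2 (-4.36 ± 0.27) fell.

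Keratins were higher in 12 of 14 and lower in 2, or 8 and 2 with spike-in scaling. KRT13, of stratified mucosa, averaged 808 ± 3.21 CPM in erlotinib cells, against 85.6 ± 2.36 CPM in parental cells (log2 fold change 3.24 ± 0.033), and KRT4, its partner, 14.6 ± 0.819 CPM in erlotinib cells, against 0.243 ± 0.0338 CPM in parental cells (log2 fold change 5.90 ± 0.14). KRT15 (4.21 ± 0.048) and KRT16 (4.04 ± 0.05) rose, KRT6A (-1.44 ± 0.044) and KRT81 (-2.03 ± 0.11) fell, and KRT7, KRT18 and KRT80 changed sign with spike-in scaling; close paralogs such as KRT6A and KRT6B or KRT16 and KRT17 can share reads. In the lung lineage group 12 of 15 genes above the filter were higher and 2 lower. SOX2, a factor of airway progenitors, had 20.5, 20.6 and 21.4 CPM in erlotinib cells, against 0.107, 0.154 and 0.176 CPM in parental cells (log2 fold change 7.15 ± 0.12). NKX2-1, the lung master regulator, stayed low at 0.359 against 0.0626 CPM in erlotinib and parental cells, the forkhead factor FOXA1 rose (log2 fold change 1.39 ± 0.044), TP63 (-0.58 ± 0.14) and KRT5 (-0.46 ± 0.03) fell, and the surfactant genes SFTPB and SFTPC were below the filter.

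Mesenchymal genes gave no single direction, 7 higher and 3 lower of 12, or 5 and 4 with spike-in scaling. FN1 (fibronectin) had 1639, 1659 and 1649 CPM in erlotinib cells, against 483, 516 and 514 CPM in parental cells (log2 fold change 1.71 ± 0.028), SPARC rose (3.48 ± 0.49), and ZEB1, a repressor of epithelial genes, fell (log2 fold change -2.49 ± 0.17) with VIM (-0.41 ± 0.036). Targets and parts of the YAP-TEAD pathway were 6 higher and 5 lower of 11, with CCN2 at 1.52 ± 0.13 and ANKRD1 at -1.71 ± 0.046, though 3 higher and 7 lower with spike-in scaling, where 3 called members, YAP1 among them, changed sign. Notch genes were 5 higher and 4 lower of 11 (3 and 5 with spike-in scaling), with DLL4 (2.96 ± 0.30) and NOTCH3 (1.73 ± 0.098) up and NRARP (-1.38 ± 0.049) down. TGF-beta and BMP genes were 6 higher and 8 lower of 17: the ligand TGFB3 (4.53 ± 0.084), the target ID3 (1.62 ± 0.085) and the inhibitor SMAD6 (2.06 ± 0.21) rose, and TGFBR1 (-1.20 ± 0.036) and SMAD9 (-1.54 ± 0.26) fell. Proteases and invasion genes were 5 higher and 7 lower of 16. MMP12 (8.32 ± 0.18), MMP13 (6.30 ± 0.11) and MMP7 (5.63 ± 0.19), matrix-degrading enzymes, rose, whereas the hyaluronan synthase HAS3 (-6.34 ± 0.087) and its product's receptor CD44 (-2.11 ± 0.027) fell.

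Aldehyde dehydrogenases, used as markers of tolerant cells, were higher in 15 of 19 and lower in 4. ALDH1A3, the member with the most reads, fell, with 949, 935 and 927 CPM in erlotinib cells, against 1932, 1935 and 1898 CPM in parental cells (log2 fold change -1.04 ± 0.024). ALDH1A1 averaged 1.99 ± 0.0270 CPM in erlotinib cells, against 0.0518 ± 0.0586 CPM in parental cells (log2 fold change 5.20 ± 0.41), and ALDH1A2 (6.21 ± 0.38), ALDH3B2 (6.07 ± 0.11) and ALDH3A1 (1.69 ± 0.058) rose. ALDH1B1 was called higher (0.22) and changed sign with spike-in scaling. Drug transporters were higher in 4 of 6 tested, ABCC5 (1.42 ± 0.028) and ABCC4 (1.40 ± 0.056) among them, while ABCG2 fell (-0.81 ± 0.038), ABCC1 (0.29 ± 0.029) changed sign with spike-in scaling, and ABCB1 was below the filter.

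Genes that set or remove DNA methylation and genes of heterochromatin silencing were mostly lower, at 15 of 23, with 6 higher (17 and 3 with spike-in scaling). UHRF1, which brings DNMT1 to replicated DNA, averaged 13.96 ± 0.770 CPM in erlotinib cells, against 111 ± 4.82 CPM in parental cells (log2 fold change -2.998 ± 0.073), and DNMT1 itself fell (log2 fold change -1.31 ± 0.034). SUV39H1 (-1.40 ± 0.058), a histone H3 lysine 9 methyltransferase, CBX3 (-1.28 ± 0.038), a heterochromatin protein, and TASOR (-0.64 ± 0.037), a subunit of the HUSH silencing complex, fell. ATF7IP, the partner of SETDB1, rose (log2 fold change 0.70 ± 0.043), as did the de novo methyltransferase DNMT3A (0.66 ± 0.043) and the demethylase TET1 (2.24 ± 0.28). TET2 (0.32 ± 0.055) was called higher and changed sign with spike-in scaling. Polyadenylated histone genes were 7 higher and 5 lower of 14 (5 and 5 with spike-in scaling), with H2AC6 (2.41 ± 0.15) and H2BC5 (2.01 ± 0.063) up and the variant genes H2AZ1 (-1.596 ± 0.035) and H2AX (-0.95 ± 0.11) down. H3-3A (0.19 ± 0.038) changed sign with spike-in scaling. Long noncoding RNAs were 5 higher and 5 lower of 10, or 3 and 5 with spike-in scaling. CCAT1 (-7.03 ± 0.11) fell nearly to 0, SNHG15 (-2.23 ± 0.042) and SNHG1 (-1.48 ± 0.039) fell, NEAT1 (2.63 ± 0.04), H19 (4.57 ± 0.11) and MALAT1 (1.40 ± 0.11) rose, and GAS5 and TUG1 changed sign with spike-in scaling.

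Outside these groups, genes named for the size of their change add further extremes. TERT, the catalytic subunit of telomerase, had 0.0118, 0.106 and 0.0976 CPM in erlotinib cells, against 19.5, 19.4 and 22.7 CPM in parental cells (log2 fold change -8.11 ± 0.22, adjusted p = 5.83e-15), the largest fall by the rule that named genes of at least 10 CPM in 1 group. HSD3B1 (-7.93 ± 0.068), an enzyme of steroid hormone synthesis, COL13A1 (-6.96 ± 0.097), a membrane collagen, MFSD2A (-6.61 ± 0.19), a lipid transporter, and the decoy receptors IL1R2 (-5.94 ± 0.088) and IL13RA2 (-5.30 ± 0.13) came next to the cytokines. FABP5 (-5.09 ± 0.054), a fatty acid carrier, PHLDA1 (-4.92 ± 0.034), and TNS4 (-4.99 ± 0.06), a focal adhesion protein, fell about as far as ODC1. ITGA6, the alpha subunit of a laminin receptor, had 64.0, 59.8 and 63.5 CPM in erlotinib cells, against 1402, 1463 and 1400.1 CPM in parental cells (log2 fold change -4.51 ± 0.039). On the rising side, TMT1A had 10.3, 10.1 and 10.1 CPM in erlotinib cells and no read in parental cells, at least 769-fold higher when 3 reads over the parental group are taken as the limit. BCAS1 (8.85 ± 0.14), the immune checkpoint ligand VTCN1 (8.77 ± 0.11), the copper oxidase CP (8.28 ± 0.12), SELENOP (6.77 ± 0.14), a selenium carrier, and STEAP4 (6.36 ± 0.059), a metalloreductase, rose. CP had 40.5, 42.0 and 42.1 CPM in erlotinib cells, against 0.107, 0.128 and 0.162 CPM in parental cells. The germ cell and placental alkaline phosphatases ALPG (8.27 ± 0.11) and ALPP (5.25 ± 0.065) rose together but are near-identical, so their separate values are uncertain.

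In read number, the gains were carried by other genes. The largest was that of RNR2, the large ribosomal RNA of mitochondria, with 12157, 11505 and 11663 CPM in erlotinib cells, against 5210.4, 5473 and 4829 CPM in parental cells (log2 fold change 1.19 ± 0.041). FTH1, the heavy chain of the iron store ferritin, had 9239, 8851 and 8676 CPM in erlotinib cells, against 3472, 3307 and 3423 CPM in parental cells (log2 fold change 1.39 ± 0.025). TNFAIP2 (log2 fold change 3.05 ± 0.05), CD24 (3.52 ± 0.037), a mucin-like surface protein, PSAP (1.37 ± 0.021), a lysosomal saposin precursor, RARRES1 (5.03 ± 0.042), a retinoid-responsive gene, and PLXNB2 (2.11 ± 0.093), a semaphorin receptor, were among the 15 genes that gained most reads. Among the 15 that lost most were the tubulins TUBB (-1.63 ± 0.024) and TUBA1B (-2.09 ± 0.026), the proteasome subunit PSMD2 (-1.73 ± 0.025) and calmodulin CALM2 (-1.88 ± 0.039).

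Against DTPs, the state after 8 days in the same dose, 1954 genes were at least 2-fold higher at 24 hours (11.4%) and 2137 lower (12.5%). Part of the early response was larger at 24 hours than at 8 days. MUC1 had 246, 247 and 233 CPM in erlotinib cells, against 23.6, 22.5 and 21.98 CPM in DTPs (log2 fold change 3.41 ± 0.053, adjusted p = 2.90e-17). SOX2 had 20.5, 20.6 and 21.4 CPM in erlotinib cells, against 0.0696, 0.0359 and 0.0385 CPM in DTPs (log2 fold change 8.70 ± 0.14, adjusted p = 5.00e-17), with the DTP level at or below that of parental cells (0.145 CPM). BMF (log2 fold change 2.83 ± 0.044, adjusted p = 2.78e-17), TNFSF10 (log2 fold change 4.29 ± 0.093, adjusted p = 1.17e-15), PIK3IP1 (log2 fold change 2.63 ± 0.043, adjusted p = 4.95e-17) and KRT4 (log2 fold change 3.35 ± 0.11, adjusted p = 1.37e-13) were likewise higher at 24 hours, as were the lipid genes SCD (log2 fold change 3.38 ± 0.032, adjusted p = 1.40e-19) and INSIG1 (log2 fold change 2.13 ± 0.033, adjusted p = 2.16e-17). Genes that had fallen were lower at 24 hours than in DTPs for CDC6 (log2 fold change -3.32 ± 0.043, adjusted p = 3.35e-18), CCND1 (log2 fold change -1.78 ± 0.027, adjusted p = 1.75e-17), ODC1 (log2 fold change -3.19 ± 0.047, adjusted p = 1.42e-17), HBEGF (log2 fold change -3.21 ± 0.055, adjusted p = 7.66e-17) and ETV5 (log2 fold change -4.94 ± 0.069, adjusted p = 8.19e-18), so the DTP values lay nearer to the parental ones.

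Several interferon-stimulated genes ran the other way, with DTP levels above those of 24 hours. IFIT1 had 3.40, 3.64 and 3.42 CPM in erlotinib cells, against 108, 106 and 106 CPM in DTPs (log2 fold change -4.93 ± 0.098, adjusted p = 3.89e-16). IFI6 had 2.11, 2.10 and 1.84 CPM in erlotinib cells, against 114, 112 and 118 CPM in DTPs (log2 fold change -5.83 ± 0.062, adjusted p = 5.07e-19), and BST2 (log2 fold change -6.02 ± 0.061, adjusted p = 2.39e-19) followed. Over the 3 groups the mean of BST2 was 1.48 CPM in erlotinib cells, 96.9 CPM in DTPs and 0.0526 CPM in parental cells. FN1 (log2 fold change -4.29 ± 0.031, adjusted p = 1.11e-20) and IGFBP5 (log2 fold change -1.94 ± 0.039, adjusted p = 4.31e-16) were also lower at 24 hours than in DTPs, and TOP2A was higher (log2 fold change 0.42 ± 0.041, adjusted p = 1.17e-07), though not with spike-in scaling (0.00021). With spike-in scaling the counts against DTPs became 1209 higher and 4035 lower at least 2-fold, so the split between directions depends on the scaling.

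Carboplatin for 72 hours gave different values for the same members, with 3353 genes at least 2-fold higher (19.6%) and 3063 lower (17.9%) in erlotinib cells than in carboplatin cells, or 1533 and 8628 with spike-in scaling. CDKN1A, a p53 target, had 6.05, 6.11 and 6.49 CPM in erlotinib cells, against 256, 241 and 262 CPM in carboplatin cells (log2 fold change -5.35 ± 0.049, adjusted p = 4.98e-20). MYC had 70.3, 72.6 and 70.1 CPM in erlotinib cells, against 242, 235 and 254 CPM in carboplatin cells (log2 fold change -1.78 ± 0.036, adjusted p = 2.05e-16), and CDC6 (log2 fold change -3.95 ± 0.043, adjusted p = 2.47e-19), DUSP6 (log2 fold change -6.59 ± 0.074, adjusted p = 3.54e-19) and IL1B (log2 fold change -7.68 ± 0.093, adjusted p = 6.61e-19) were lower in erlotinib cells too. BMF (log2 fold change 3.32 ± 0.046, adjusted p = 2.90e-18), MUC1 (log2 fold change 5.69 ± 0.064, adjusted p = 3.48e-19), INSIG1 (log2 fold change 1.70 ± 0.032, adjusted p = 9.80e-17) and IGFBP5 (log2 fold change 8.15 ± 0.064, adjusted p = 1.73e-20) were higher in erlotinib cells than in carboplatin cells. The drugs differ in duration as well as in kind.

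**Figure D4:**
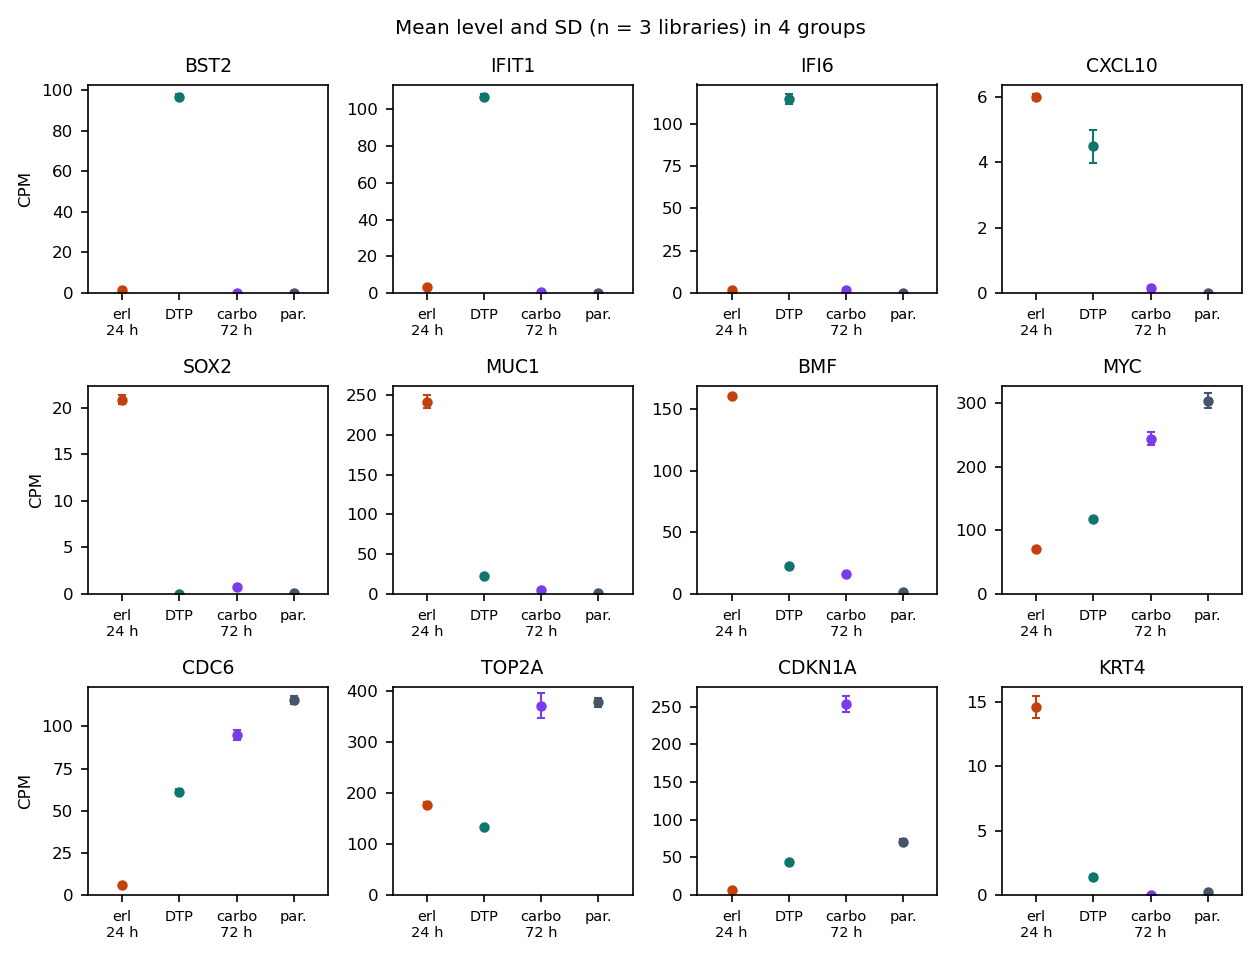
Mean level (CPM, linear axis from 0) with SD over 3 libraries of 12 genes in erlotinib cells, DTPs, carboplatin cells and parental cells. IFIT1, IFI6 and BST2 are highest in DTPs, SOX2, MUC1, BMF and KRT4 are highest in erlotinib cells, and CDKN1A is lowest in erlotinib cells and highest in carboplatin cells.

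The labelled identity was checked against markers. All 6 epithelial markers were present in every library, with a summed level of 7903 to 8065 CPM in erlotinib cells and 4809 to 5021 CPM in parental cells. Of 9 fibroblast markers 3 passed the filter, with a summed level over the list of 18.4 to 19.7 against 4.61 to 4.65 CPM in erlotinib and parental cells. Of 7 endothelial markers 4 passed, with 107 to 112 against 17.1 to 18.1 CPM. Of 7 macrophage markers 4 passed, with 53.6 to 54.6 against 33.5 to 36.7 CPM, where TYROBP had 0 reads in both groups. None of 7 lymphocyte markers passed. Of 5 neuroendocrine markers 3 passed and 2 were higher, and of 3 mesothelial markers MSLN rose (log2 fold change 4.31 ± 0.23), CALB2 fell (log2 fold change -2.13 ± 0.03) and WT1 had 1.09 estimated reads in erlotinib cells, against 39.8 in parental cells. The markers that passed in the endothelial list included PECAM1 (2.88 ± 0.051) and CDH5 (2.28 ± 0.045) and in the fibroblast list COL1A1 (1.99 ± 0.10). Their part in the other results was not tested.

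Repeat transcripts as a whole did not differ detectably. Reads on repeats came to 2.25, 2.17 and 2.92 per 100 gene reads in erlotinib libraries, against 2.06, 4.30 and 1.68 in parental libraries (log2 difference -0.02, exact permutation test, two-sided p = 1). The spread came from ribosomal RNA entries, which held 2.93% of all reads in parental library b, and without that library the log2 difference was 0.39 (exact p = 0.2, where 0.1 is the smallest that 3 against 2 allows). Without ribosomal RNA the ratio was 1.48, 1.45 and 1.45 in erlotinib libraries, against 1.19, 1.22 and 1.20 in parental libraries, and the groups did not overlap. With the LINE, SINE, LTR and DNA classes alone the log2 difference was 0.28 (exact p = 0.1, the smallest 3 against 3 allows). Spike-in reads per gene read rose by more (log2 difference 0.46), so per spike-in read both of these ratios were lower in erlotinib libraries. Total repeat reads per spike-in read differed by -0.48 on the log2 scale (exact permutation test, two-sided p = 0.5). LTR elements, the remains of endogenous retroviruses, rose most among the large classes, at 461, 453 and 445 reads per 100000 gene reads in erlotinib libraries, against 300.1, 304 and 312 in parental libraries. LINE elements had 540.0, 536 and 543, against 467, 494 and 474. These ratios and class values lack the TMM factors, 1.01 to 1.02 in erlotinib and 0.928 to 0.934 in parental libraries, that scale the families and subfamilies below. A rise in a class is therefore not to be compared with the fold change of a family. Reads of a repeat that lies inside a gene's transcript and reads that start in the repeat cannot be told apart in these tables.

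Of 57 repeat families tested, 22 were higher (38.6%) and 6 lower (10.5%). Because the scaling decides many of these calls, each family is given per gene read, per spike-in read and per repeat read without ribosomal RNA. ERVK, the youngest retroviral family in the human genome, had 292, 279 and 279.5 CPM in erlotinib cells, against 181, 188 and 183 CPM in parental cells, and its log2 fold change was 0.63 ± 0.031 with gene scaling, 0.30 with spike-in scaling and 0.47 with repeat scaling. ERV1, a group of older retroviral elements, had 2733, 2648 and 2571 CPM in erlotinib cells, against 1805, 1782 and 1894 CPM in parental cells, with 0.54 ± 0.034 with gene scaling, 0.21 with spike-in scaling and 0.39 with repeat scaling. Both rose, with no overlap between groups, though ERV1 lost its call with spike-in scaling (adjusted p = 0.123) and ERVK kept one (adjusted p = 0.0405). SVA, a composite retroposon still active in humans, gave 0.52 ± 0.06 with gene scaling, 0.19 with spike-in scaling and 0.37 with repeat scaling. L1, the LINE-1 family, had 4158, 4074 and 4136 CPM in erlotinib cells, against 3959, 4180.0 and 3984 CPM in parental cells and did not pass the test (log2 fold change 0.03 ± 0.039), and neither did Alu (log2 fold change -0.01 ± 0.04). Alu was called lower with spike-in scaling (-0.34) and with repeat scaling (-0.17), and L1 with repeat scaling (-0.12). The families scRNA, which holds the neuronal noncoding RNA BC200 (-2.40 ± 0.12), and PiggyBac (-1.03 ± 0.082), a DNA transposon, were the lowest called.

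**Figure D5:**
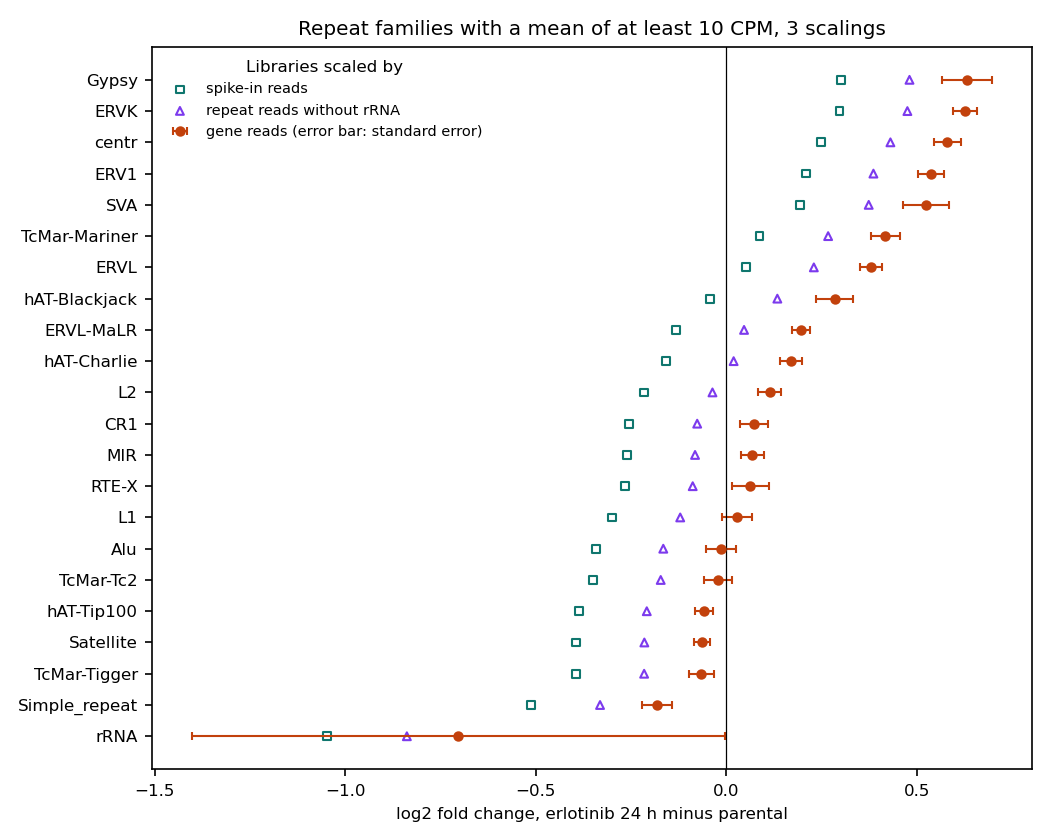
Log2 fold change, erlotinib over parental cells, of the 22 repeat families with at least 10 CPM, under 3 scalings: gene reads, spike-in reads and repeat reads without ribosomal RNA. ERVK and ERV1 lie above 0 under all 3 scalings, and L1 and Alu lie at 0 with gene scaling and below it with spike-in scaling.

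Of 1089 repeat subfamilies, 430 were higher (39.5%) and 179 lower (16.4%), with 141 at least 2-fold higher (12.9%) and 36 at least 2-fold lower (3.31%). Under all 3 scalings 204 kept a call as higher and 179 as lower. Both other scalings moved subfamilies down, from a median log2 fold change of 0.17 with gene scaling to 0.02 with repeat and -0.16 with spike-in scaling. A lower call could thus hardly be lost, so agreement of the 3 scalings puts only the rises to a test, here and in the groups below. Of the 10 largest rises at 1 CPM or more, 5 were terminal repeats of retroviral elements, 1 was an internal retroviral sequence and 4 were simple or low-complexity repeats. The simple repeat (CAGCTC)n, first by size, had 0.129, 1.55 and 1.501 CPM in erlotinib cells and no read in parental cells, and (GCCCCA)n had 2.22, 2.17 and 2.28 CPM in erlotinib cells, against 0.0666, 0.0641 and 0.108 CPM in parental cells (log2 fold change 4.78 ± 0.26). LTR2C, a terminal repeat of an ERV1 element, had 54.9, 50.7 and 45.8 CPM in erlotinib cells, against 7.26, 7.08 and 7.25 CPM in parental cells (log2 fold change 2.81 ± 0.062). LTR22B1, of an ERVK element, had 11.3, 10.5 and 10.0 CPM in erlotinib cells, against 1.07, 1.32 and 1.24 CPM in parental cells (log2 fold change 3.13 ± 0.10). All 3 erlotinib libraries were above the parental libraries for both, and MER65B (5.01 ± 0.39), LTR36 (2.83 ± 0.10) and HERV15-int (2.77 ± 0.14) rose as well. Among the falls were BC200 (-2.52 ± 0.16), LTR10B (-2.40 ± 0.20), LTR43B (-2.16 ± 0.19), MER75 (-1.93 ± 0.11) and AluYi6 (-1.92 ± 0.23).

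Subfamilies of 1 kind did not all move alike. A list of 104 subfamilies drawn up for ERVK elements gave 53 higher and 8 lower, 31 and 8 of them under all 3 scalings. In both groups this list held more reads than the whole ERVK family. It therefore includes other elements, and its counts are not those of ERVK alone. Of 134 internal proviral sequences 68 were higher and 24 lower, 38 and 24 under all 3. HERVH and its terminal repeat LTR7 gave 9 higher and 2 lower of 20, LTR10 elements 9 and 3 of 18, LTR12 elements 2 and 2 of 7, and SVA elements 4 and 1 of 6. ERVL-MaLR elements, an older retroviral group, gave 35 higher and 15 lower of 77, though 9 and 15 under all 3 scalings. Young Alu elements of the AluY group were 2 higher and 7 lower of 20, AluS elements 3 and 4 of 17, DNA transposons 15 and 14 of 87, simple repeats 25 and 12 of 76, and satellites 6 and 2 of 14. The old AluJ elements gave 1 and 2 of 8, and L2 and MIR elements 2 and 0 of 9.

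LINE-1, the element in the title of the series, showed no common rise at 24 hours. L1HS, the human-specific subfamily that still jumps, had 51.6, 51.7 and 55.9 CPM in erlotinib cells, against 53.2, 56.2 and 53.8 CPM in parental cells, with overlapping groups and no call (log2 fold change -0.04 ± 0.042); it was called lower with spike-in scaling (-0.37) and with repeat scaling (-0.19). Its older relatives L1PA3 and L1PA4 had no call either (-0.03 ± 0.042 and 0.02 ± 0.04). They were called lower with spike-in scaling (-0.36 and -0.31) and with repeat scaling (-0.18 and -0.13). L1PA2 was higher per gene read, with 98.3, 99.6 and 101 CPM in erlotinib cells, against 73.6, 78.4 and 73.7 CPM in parental cells (log2 fold change 0.41 ± 0.036). L1PA2 was called higher with repeat scaling too (0.26) and had no call with spike-in scaling (0.08). L1PA8 was called higher per gene read (0.19 ± 0.043) but had no call with repeat scaling (0.04) or spike-in scaling (-0.14). L1PA7 was higher under all 3 scalings (0.62 ± 0.041, 0.29 and 0.47 with gene, spike-in and repeat scaling), and L1PA5 (-0.57 ± 0.043, -0.90 and -0.72) and L1PA6 (-0.31 ± 0.046, -0.64 and -0.46) were lower under all 3. Of the 9 youngest L1 subfamilies 3 were higher and 2 lower, 1 and 2 under all 3 scalings. Of 17 older L1PA and L1PB subfamilies 9 were higher and 4 lower, 1 and 4 under all 3 scalings, and of 95 old L1M subfamilies 26 were higher and 35 lower, 4 and 35 under all 3 scalings.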

How the data were processed

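RNA of PC9 cells, selected for poly(A) tails, was sequenced by the authors, who deposited 5 tables of estimated counts for genes, repeat names, repeat families, repeat classes and spike-in transcripts. Salmon is named in the submitters' processing notes, with no version, and a genome build, an annotation and a strand setting were not given in the sources used here. The counts are not scaled between libraries, and 3 columns in each table that match no sample label were not used. Groups were taken from the sample titles.

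Estimated counts were rounded to whole numbers. Genes were filtered with filterByExpr, scaled by TMM and tested with edgeR 4.0.16 (limma 3.58.1, R 4.3.3), by the quasi-likelihood F test with Benjamini-Hochberg adjustment over all features. The fit held 12 libraries (erlotinib, parental, DTP and carboplatin), which share 1 estimate of the spread with 8 residual degrees of freedom, and left out both TSA groups. Repeat families and subfamilies used the gene library sizes and TMM factors, so their levels are per gene read after that scaling. A standard error is the absolute log2 fold change divided by the square root of F. Means are given with SD, n = 3 libraries for each group, unless the 3 values are printed. Gene symbols were matched for 27814 of 30727 identifiers and promoters for 12802 of 17076 tested genes, from RefSeq tables of GRCh38.p14. The test was checked on simulated data for the erlotinib and parental comparison, where it called 0.0356% of unchanged genes. Few genes were changed there, so this share is not the rate of false calls in the data.

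Genes were named by a rule: a fixed set of pathway genes, the 25 per direction with the largest fold change at 10 CPM or more without overlap, the 15 per direction with the largest difference in reads, and the 6 per direction that changed most in each of 53 gene lists, with members opposite to their list. Some members outside it, among them those that changed sign with spike-in scaling, were chosen after their values were seen. A few genes named by the rule are left out and not reported here. The members and lists were chosen with earlier results of these data known, so they are no independent evidence. Alternatives covered DESeq2 1.42.0, its size factors, filters, spike-in and repeat scaling, other sets of libraries, a replicate block and each library left out in turn. Motifs and figures used Python 3.11.15, pandas 2.3.3, numpy 2.4.6 and matplotlib 3.10.9. Fold changes against groups at 0 reads are bounds set at 3 reads over the group.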

Additional observations from a re-analysis of the deposited data

How the results depend on the processing

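Of 371 values named for a gene or repeat, 330 kept their direction and their side of the threshold under every alternative run for them, and the rest are covered here by those that changed sign and by the report. The count of genes at least 2-fold higher became 2738 where 1 CPM in 3 libraries was required. Subfamily counts moved with scaling and fit: higher, 265 with all 18 libraries, 204 with spike-in scaling and 110 with repeat reads as library sizes; lower, 72, 317 and 28, and 276 with repeat reads without ribosomal RNA. At least 2-fold, they were 83 higher and 86 lower with spike-in scaling and 82 and 22 with the 1 CPM filter. Families were 10 higher and 17 lower with spike-in scaling, 4 and 1 with repeat reads, 2 lower with all 18 libraries and 15 lower with repeat reads without ribosomal RNA. Against DTPs, spike-in scaling gave 1209 higher and 4035 lower at least 2-fold, and against carboplatin cells 1533 and 8628. Chosen after seeing the data were the scaling without ribosomal RNA and a fit of 16 libraries that lacked replicate a of the TSA-treated parental cells and DTPs.

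The total repeat ratio changed sign with the LINE, SINE, LTR and DNA classes alone (0.28) and without 1 library (-0.29 to 0.39). With spike-in scaling the log2 fold change became -0.042 for ABCC1, -0.033 for ACADVL, -0.11 for ALDH1B1, -0.30 for BID, -0.11 for CCNB2, -0.15 for CDKN2A, -0.032 for CLDN7, -0.13 for FOSL2, -0.14 for GAS5, -0.13 for H3-3A, -0.16 for IER2, -0.18 for KIF20A, -0.12 for KRT18, -0.013 for KRT7, -0.10 for KRT80, -0.18 for PMVK, -0.27 for SCAP, -0.30 for SLC2A1, -0.0061 for TET2, -0.14 for TUG1, -0.19 for YAP1 and -0.31 for L1PA4. With repeat reads without ribosomal RNA it became -0.12 for L1 and -0.13 for L1PA4. L1PA8, which is not among the named values counted above, became -0.14 with spike-in scaling. Spike-in scaling shifted genes almost evenly, by -0.3333 at the 5th percentile and -0.3236 at the 95th. Rises smaller than that shift therefore changed sign. The cause of the shift and of the other changes was not tested.

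Leaving out 1 library at a time gave 7210 to 7264 genes higher and 6786 to 6900 lower, 382 to 419 subfamilies higher and 163 to 184 lower. Whether the replicate letters pair the libraries is not given in the labels, and deviations of same-letter libraries correlated at only -0.054 to 0.086. With the letter as a replicate block, 7383 genes were higher and 6891 lower, and 434 subfamilies were higher and 181 lower. Levels of a few reads carry counting error that these 3 libraries per group cannot narrow.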

Other observations

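Other motifs were counted in the promoters of all genes that passed the 2-fold rule, 2902 promoters of genes higher and 2159 of genes lower in erlotinib cells. The ETS motif (CCGGAAGT, both strands) was in 3.10% of promoters of higher genes and 8.94% of promoters of lower genes, against 7.90% of all 12802. The E2F motif was in 2.07% and 5.51%, against 3.46%. The FOXO motif was in 3.58% and 2.22%, against 2.4996%, and the interferon-stimulated response element in 3.997% and 2.36%, against 2.82%. The AP-1 motif (TGANTCA, both strands) was in 6.58% and 5.70%, against 5.28%. Among ERK feedback inhibitors the ETS motif was in 0 of 12 promoters and the AP-1 motif in 1 of 12. Among ERK-driven transcription factors they were in 0 of 10 and 1 of 10. These shares describe letters in the windows and were not tested.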
